A study of Mus musculus with 12 samples.

Results

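CCE cells, an established line of mouse embryonic stem cells, were compared 4 days after they received a hairpin against the long noncoding RNA TUNA with CCE cells that had received a control hairpin and were collected at day 2. Both groups had been transduced with a pLKO.1-puro lentivirus, kept in serum medium with LIF, and put under puromycin from 24 h on, per the labels' protocols. Each group has 3 libraries of total RNA, and TUNA hairpin libraries of day 2 and day 6, also 3 each, served for comparison. No control of day 4 was analysed here, so the hairpin and the days in culture and selection cannot be told apart. The genes described are the 8043 of 37477 rows that reached 10 normalized counts in at least 3 of the 6 libraries of day 4 and control. The labels give no hairpin sequence and do not say that the replicates are separate cultures. The spread behind each p-value is that between libraries of the same group, pooled over all 12 libraries and moderated across genes. It may therefore be technical.

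The 6 libraries held an estimated 4401172 to 5656216 reads, worked out from the steps between their low values, and 64.18% to 76.9% of these lay in 3 rows (Rnu3a, Tex14 and LOC100503663), which left 1100217 to 2026100 reads for every other gene. The 3 rows took 73.96% to 75.52% in the controls. Replicates correlated across genes at 0.948 to 0.959 in the control and at 0.926 to 0.961 at day 4. The targeted RNA (row 2810011L19Rik) stood at 0 in each of the 12 libraries, and the knockdown could not be checked. Of 8 embryonic stem cell markers 7 were tested, and their summed level was 2807 to 3056 normalized counts in the control and 2400 to 2610 at day 4. Of 8 fibroblast markers 6 were at 0 in all 6 libraries, and the others summed to at most 8.28. Endoderm markers summed to 2.21 to 8.63 in the control and to 12.2 to 20.5 at day 4, with 3 of 8 at 0 and none past the filter. Markers of mesoderm, neural cells and trophectoderm summed to at most 29.7 in any of the 6 libraries.

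Several regulatory systems recur among the genes that moved. Cells short of oxygen stabilise the HIF transcription factors, which bind a short core sequence, ACGTG, near genes of glycolysis, of mitochondrial turnover and of collagen modification. Prolyl hydroxylases of the Egln family mark HIF for degradation and are themselves HIF targets. Ribosome production starts with RNA polymerase I and needs a large set of nucleolar assembly factors, many of them targets of the growth regulator Myc. Embryonic stem cells in serum and LIF are held by the LIF receptor and STAT3 and by a network around Oct4, and ERK signalling moves them towards differentiation.

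At day 4, 601 of the 8043 genes (7.47%) were higher and 676 (8.40%) lower than in the control, by limma with Benjamini-Hochberg adjustment at 0.05. Of all genes tested 2488 had an unadjusted p under 0.05, and the median log2 change of all genes was -0.01. A change of at least 2-fold was found in 295 genes upwards and 290 downwards, and one of at least 4-fold in 35 and 26. In 1276 genes (15.9%) all 3 day 4 libraries lay above all 3 controls, and in 1399 (17.4%) below them. Higher genes made up 47.1% of the calls. Scaled instead by the total without the 3 dominant rows, the same libraries gave 337 higher and 1334 lower genes, of which 20.2% were higher, with the median of all genes at -0.21. No call named below changed sign under that scaling. Without control replicate 1 the counts were 398 and 444, and without day 4 replicate 2 they were 362 and 457. The scatter of group means shows the calls over the range of levels.

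**Figure D1:**
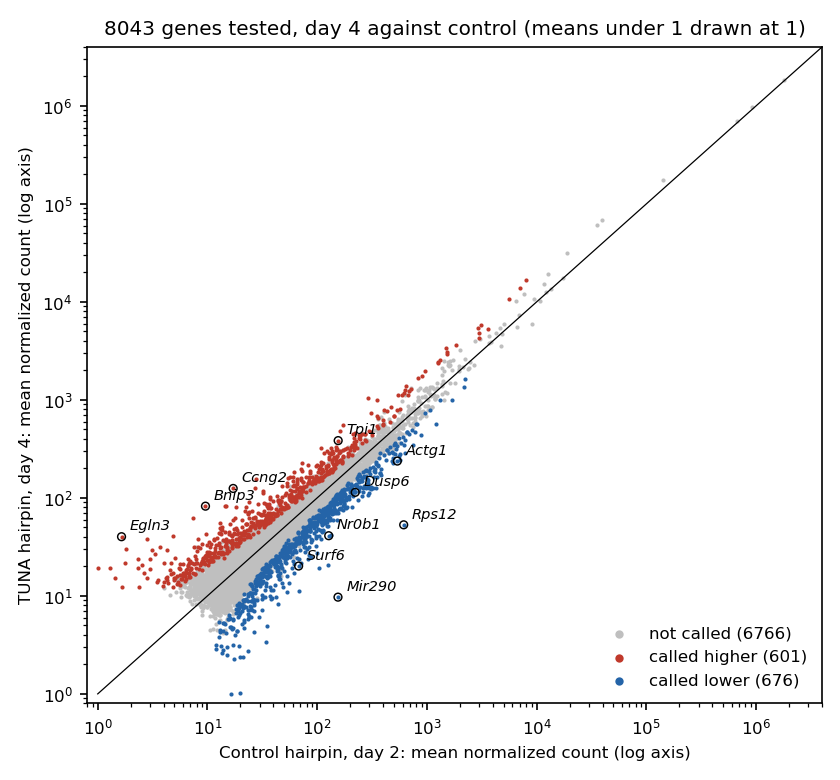
Mean normalized count of each of the 8043 genes in the control (horizontal, log axis) and at day 4 of the TUNA hairpin (vertical, log axis), n = 3 libraries each; red points were called higher (601), blue points lower (676), and the line marks equal levels. Ringed genes are described in the text, with Mir290 and Rps12 below the line and Egln3 and Bnip3 above it.

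Counts over gene lists showed where the calls fell. Beside 7.47% of all genes, 57.1% of the glycolysis genes tested, 50% of p53 genes and 44.8% of other genes of the low oxygen response were higher. Of the 29 low oxygen genes behind the last share, 6 passed the filter through day 4 libraries only. Of the 23 others 8 were higher. Beside 8.40% of all genes, 36.1% of ribosome biogenesis genes and 31.1% of pluripotency genes were lower. Oxidative phosphorylation, with 2 of 66 genes lower and none higher, and ribosomal proteins, with 5 of 78 in each direction, lay near or under the share of all genes. Scaled without the 3 dominant rows, 1334 of all 8043 genes were lower (676 in the first scaling), and many lists held more lower genes too. That scaling gave 15 lower genes each for amino acid supply and chaperones (8 each in the first scaling), 14 for DNA replication (8), and 13 each for translation factors, nuclear transport and general transcription factors (8 each). It gave 12 lower for mitochondrial ribosomal proteins (5), 10 for cytosolic ones (5), 9 for mitosis (5), 6 for oxidative phosphorylation (2) and 6 for cell adhesion (1). It gave 5 lower for the hypoxia list (2), the genes that make microRNAs (2), basement membrane (3) and autophagy (3), and 4 for the Bcl2 family (2) and Nodal and BMP signalling (1). For cytosolic ribosomal proteins, mitosis, oxidative phosphorylation, autophagy, and Nodal and BMP signalling, the lower share stayed under that of all genes in that scaling. Higher genes fell to 2 for the FOXO list (5), the actin list (4) and the Hippo list (4), and to 3 for autophagy (6). The bar plot gives both directions side by side for a selection of the lists.

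**Figure D2:**
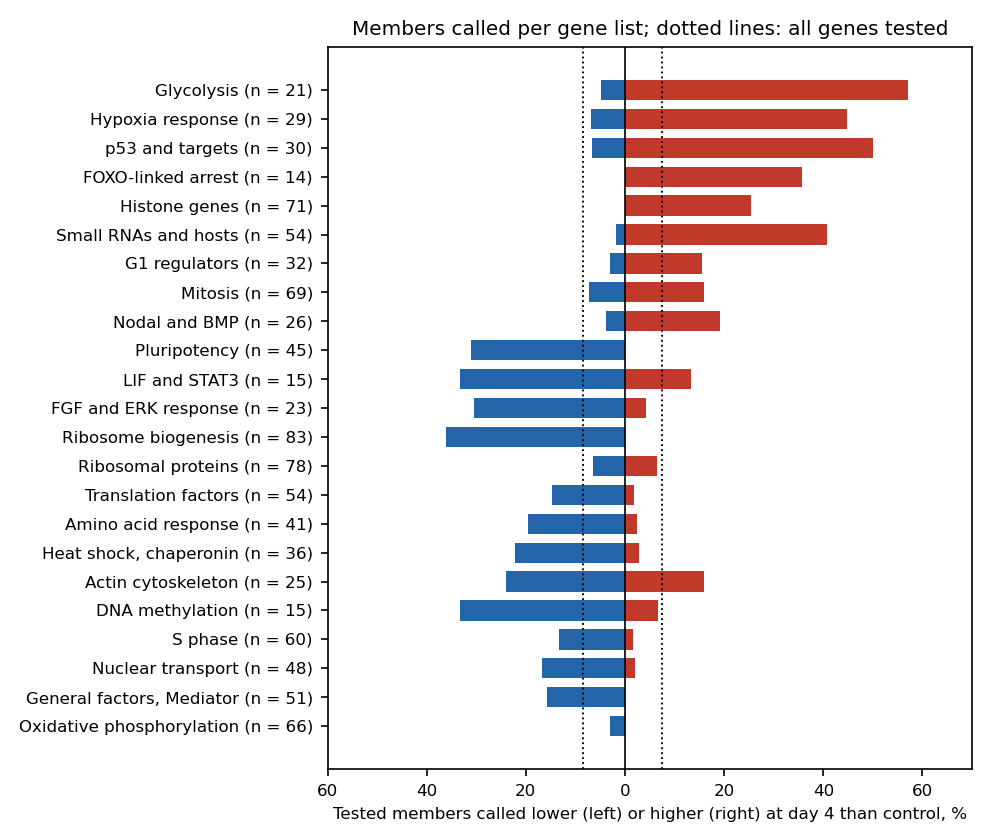
Percent of the tested members called lower (blue, to the left) or higher (red, to the right) at day 4 than in the control, for a selection of the 60 gene lists. The number tested is n, and the dotted lines mark all genes tested (8.40% lower, 7.47% higher). Members that passed the filter through 1 group only are included, 6 of 29 in the hypoxia list. Glycolysis reaches 57.1% higher and ribosome biogenesis 36.1% lower.

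The deepest fall was that of Mir290, the row of the first hairpin of the miR-290 cluster, which yields the microRNAs most abundant in mouse embryonic stem cells. Mature sequences are shown because the seed (bases 2 to 8, in capitals), which guides target choice, recurs in the cluster: miR-291a-3p, miR-294-3p and miR-295-3p share AAGUGCU, while miR-290a-3p has AAGUGCC and the 5p arm CUCAAAC. RefSeq places the cluster on chromosome 7 of GRCm38.p6, plus strand, with miR-290a-5p at chr7:3218639-3218660, and gives these mature sequences:
miR-290a-5p: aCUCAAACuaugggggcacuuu
miR-290a-3p: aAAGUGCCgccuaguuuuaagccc
miR-291a-3p: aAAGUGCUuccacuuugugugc
miR-294-3p: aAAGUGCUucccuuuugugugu
miR-295-3p: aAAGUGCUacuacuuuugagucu

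Mir290 had 154, 133 and 177 normalized counts in control replicates 1, 2 and 3 and 2.51, 2.77 and 23.9 at day 4, and the same order is kept for every gene below. All day 4 libraries were far under the control, replicate 3 the least so (log2 change -4.49 ± 0.56, where ± gives the standard error as for every log2 change below, adjusted p 9e-05 by limma, with a range of -5.41 to -3.74 over the alternatives). The row stood at 220.5, 199.8 and 246 at day 2 of the hairpin and at 33.3, 92.5 and 139 at day 6. Day 4 was thus also under day 2 (-5.01 ± 0.56) and day 6 (-3.47 ± 0.56). The rows of the neighbours Mir291a, Mir291b, Mir292, Mir293, Mir294 and Mir295 were listed at 0 in all 12 libraries. Reads on a hairpin row of total RNA are not a measure of mature microRNA. Of the genes that make microRNAs, 2 of 16 tested were lower (12.5%, beside 8.40% of all genes) and none higher. Lin28a, which binds let-7 precursors, had 151, 137 and 158 in the control and 93.1, 104 and 89.2 at day 4, without overlap (-0.64 ± 0.14, adjusted p 0.00505 by limma). Xpo5, the exporter of precursors, changed by -0.65 ± 0.20, a call lost on leaving out replicate 2 or 3 of the control or replicate 1 or 2 of day 4 (adjusted p reaching 0.153).

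Genes of the low oxygen response were higher at day 4 than in the control. Of the 51 in the list outside glycolysis 29 were tested, and 13 were higher and 2 lower (median log2 change 0.90 beside -0.01 for all genes); 6 of the 29 passed the filter through day 4 libraries only, and of the 23 others 8 were higher. With 1 library left out, 11 to 13 were higher. Egln3, an oxygen-sensing prolyl hydroxylase, had 0, 2.76 and 2.18 in the control and 41.8, 39.9 and 38.9 at day 4. Bnip3, a mitophagy receptor, had 9.58, 8.20 and 11 in the control and 91.9, 92.7 and 62.6 at day 4. All 3 day 4 libraries of both genes were at least several times the highest control, with log2 changes of 4.17 ± 0.52 and 2.96 ± 0.28 (adjusted p 9e-05 and 8.45e-06 by limma). At day 2 of the hairpin Egln3 had 4.15 ± 1.74 and Bnip3 10.9 ± 2.75 (SD, n = 3), and at day 6 2.73 ± 0.344 and 12.1 ± 2.17.

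Egln1, the main HIF prolyl hydroxylase of most cells, rose from 13.7, 10.1 and 14.3 to 49.7, 35.3 and 45.8. Ddit4, an inhibitor of mTORC1 also counted among the p53 targets, had 12.9, 14.7 and 15.4 in the control and 102, 95.7 and 53.3 at day 4. Pgm2, a phosphoglucomutase, had 14.6, 15.4 and 14.2 in the control and 85, 93.1 and 72.3 at day 4, and day 4 exceeded the control in each of these genes without overlap (log2 changes 1.70, 2.41 and 2.42). Ero1l, the oxidase that forms disulfide bonds in the endoplasmic reticulum, changed by 1.09 ± 0.20, Fam162a by 1.81 ± 0.33, Narf by 1.45 ± 0.32 and Ppp1r3c, a regulator of glycogen synthesis, by 3.0 ± 0.61. Kit, the stem cell factor receptor, had 32.8, 38.9 and 36 in the control and 57.3, 68 and 79.2 at day 4, a call lost on leaving out replicate 1 of the control or replicate 2 or 3 of day 4 (adjusted p reaching 0.0566). Bhlhe40, a repressor of transcription, rose from at most 3.45 to 14.3, 25.2 and 12.2, but its call was lost on leaving out replicate 1, 2 or 3 of the control or replicate 1, 2 or 3 of day 4 (adjusted p reaching 0.166). Some HIF-linked genes went the other way. Tfrc, the transferrin receptor, fell from 632, 622 and 613 to 334, 368 and 340.3 (-0.84 ± 0.12, adjusted p 0.000158 by limma). Ak4, a mitochondrial adenylate kinase, had 171, 123 and 122 in the control and 73.5, 90.4 and 97.8 at day 4, a call lost on leaving out replicate 1 of the control or replicate 1 or 2 of day 4 (adjusted p reaching 0.124). Kdm3a, a histone demethylase, had 422, 387 and 405 in the control and 295, 318 and 330.3 at day 4, below the control in every library but not past the threshold (adjusted p 0.0547 by limma).

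Glycolysis genes rose together, 12 of 21 tested, with 1 lower (median 0.66). Over single libraries left out the higher count ran from 8 to 11, with 8 without control replicate 3 or day 4 replicate 2, and scaled without the 3 dominant rows it was 8. The glucose transporter Slc2a1 had 466, 429 and 521 in the control and 842, 819.6 and 855 at day 4. Pfkl, the liver-type phosphofructokinase that commits glucose to the pathway, had 30.2, 28.9 and 28.2 in the control and 73.6, 80.6 and 57.8 at day 4. The groups were apart in both, with log2 changes of 0.83 ± 0.13 and 1.24 ± 0.20. Further down the pathway, the triose phosphate isomerase Tpi1 had 176, 138 and 153 in the control and 419, 403 and 332 at day 4 and the phosphoglycerate kinase Pgk1 148, 107 and 117 in the control and 318, 312 and 285 at day 4, both without overlap (1.30 and 1.30). Ldha, the lactate dehydrogenase that regenerates NAD, had 732, 533 and 632 in the control and 1188, 1209 and 1367 at day 4, and Slc16a3, the exporter of lactate, 13.9, 13.5 and 27.2 in the control and 76, 86.5 and 81.7 at day 4. Slc16a3 changed most of the 21 (2.17 ± 0.29, adjusted p 0.000118 by limma), and Ldha rose by 1.0 ± 0.14. Pdk1, the kinase that keeps pyruvate out of mitochondria, rose from 282, 251 and 244 to 395, 438 and 516, and Ldhb, the other lactate dehydrogenase, from 138, 127 and 149 to 252, 230.5 and 254.

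Hexokinase 2, Hk2, the first enzyme of the pathway, went against the list and had 1126, 1034 and 1047 in the control and 708, 843 and 801 at day 4, below the control in every library (log2 change -0.45 ± 0.14), a call lost on leaving out replicate 1, 2 or 3 of the control or replicate 1 or 2 of day 4 (adjusted p reaching 0.114). Calls of the enzymes Pgam1 (0.50) and Aldoa (0.66) were lost on leaving out replicate 2 or 3 of the control or replicate 2 of day 4 (adjusted p reaching 0.0678) and on leaving out replicate 3 of the control or replicate 2 of day 4 (adjusted p reaching 0.0652). The call of Pkm2, a pyruvate kinase (0.51), was lost on leaving out replicate 1, 2 or 3 of the control or replicate 1 or 2 of day 4 (adjusted p reaching 0.163), and that of Gpi1 (0.78) on leaving out replicate 1, 2 or 3 of the control or replicate 1, 2 or 3 of day 4 (adjusted p reaching 0.133). The neuronal-type transporter Slc2a3, the most abundant gene of the list, had 4934, 4953 and 5156 in the control and 5474, 6330.0 and 5941 at day 4 and did not pass (0.24, adjusted p 0.281 by limma). 

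Collagen-modifying hydroxylases were split. Plod2, the lysyl hydroxylase of collagen crosslinks, had 34, 26.4 and 22.1 in the control and 170.5, 176 and 123 at day 4, and P4ha1, a catalytic subunit of prolyl 4-hydroxylase, 51.8, 70.1 and 57.5 in the control and 179, 161 and 155 at day 4. Both were apart from the control in every library (2.47 ± 0.20 and 1.46 ± 0.19, adjusted p 1.93e-06 and 0.000118 by limma). The other 4 members tested did not pass, among them P4hb, the beta subunit shared with protein disulfide isomerase, which had 481, 366 and 367 in the control and 206, 279.7 and 357 at day 4 (-0.55, adjusted p 0.0765 by limma). In the plots of single genes the day 4 libraries stand above the control libraries.

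**Figure D3:**
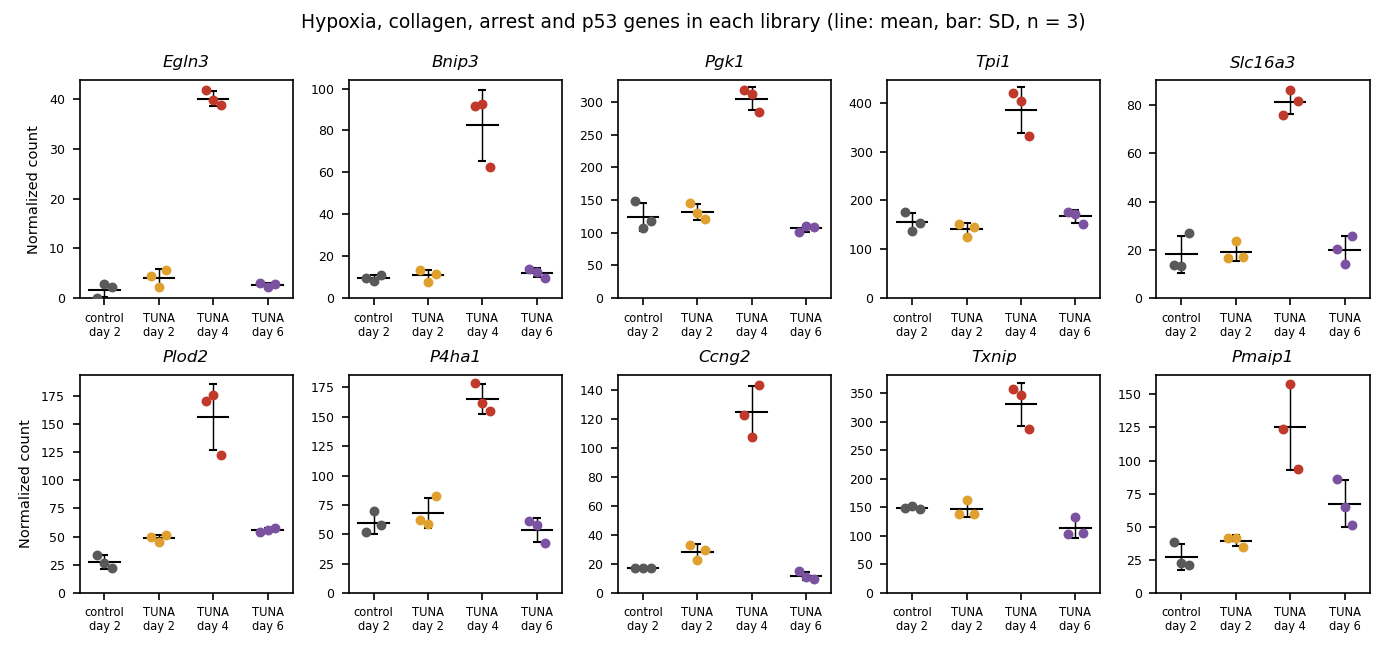
Normalized count (vertical, linear from 0) of 10 genes in each library of the 4 groups (points), with the mean (line) and SD (bar), n = 3. The day 4 points lie above all control points in every panel, and those of day 2 and day 6 lie near the control for Egln3, Bnip3, Pgk1 and Slc16a3.

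The promoters of 6 of the raised genes are printed because they carry the HIF core motif ACGTG. Each run is the 250 bases before the RefSeq start in GRCm38.p6, 5′ to 3′ on the gene's strand, with ACGTG or its reverse complement CACGT in capitals; runs of CACGTG hold overlapping matches on both strands.
Egln3, chr12:54203875-54204124, minus strand: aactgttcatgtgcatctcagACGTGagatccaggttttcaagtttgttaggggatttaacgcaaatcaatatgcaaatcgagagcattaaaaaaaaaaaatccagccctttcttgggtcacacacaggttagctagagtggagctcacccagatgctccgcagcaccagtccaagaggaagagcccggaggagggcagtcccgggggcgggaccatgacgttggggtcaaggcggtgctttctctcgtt
Bnip3, chr7:138909507-138909756, minus strand: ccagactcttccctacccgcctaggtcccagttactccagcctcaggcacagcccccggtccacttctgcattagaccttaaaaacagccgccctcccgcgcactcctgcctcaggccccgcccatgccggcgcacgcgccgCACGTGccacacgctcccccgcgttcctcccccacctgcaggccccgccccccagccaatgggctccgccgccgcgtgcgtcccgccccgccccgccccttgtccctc
Pgm2, chr5:64092689-64092938, plus strand: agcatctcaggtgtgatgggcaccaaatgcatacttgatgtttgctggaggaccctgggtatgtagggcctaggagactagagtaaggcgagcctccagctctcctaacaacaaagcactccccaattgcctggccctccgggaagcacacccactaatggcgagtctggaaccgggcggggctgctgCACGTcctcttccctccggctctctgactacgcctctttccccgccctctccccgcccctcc
Slc16a3, chr11:120948817-120949066, plus strand: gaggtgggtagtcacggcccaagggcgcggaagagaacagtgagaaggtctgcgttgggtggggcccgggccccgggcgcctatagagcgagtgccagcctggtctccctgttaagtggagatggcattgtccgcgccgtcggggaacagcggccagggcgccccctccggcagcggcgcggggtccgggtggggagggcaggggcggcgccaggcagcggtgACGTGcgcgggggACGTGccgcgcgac
Ppp1r3c, chr19:36736605-36736854, minus strand: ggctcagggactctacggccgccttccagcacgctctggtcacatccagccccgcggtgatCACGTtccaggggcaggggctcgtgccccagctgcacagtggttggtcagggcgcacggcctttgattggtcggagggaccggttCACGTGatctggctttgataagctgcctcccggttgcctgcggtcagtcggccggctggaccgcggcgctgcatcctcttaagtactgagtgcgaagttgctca
Ddit4, chr10:59951771-59952020, minus strand: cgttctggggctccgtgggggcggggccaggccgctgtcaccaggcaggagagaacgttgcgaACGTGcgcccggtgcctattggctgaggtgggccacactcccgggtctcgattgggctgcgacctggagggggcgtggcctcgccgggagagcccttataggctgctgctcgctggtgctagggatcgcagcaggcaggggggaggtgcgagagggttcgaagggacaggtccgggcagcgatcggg

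A gene was counted when any of its promoter windows held ACGTG on either strand. This was so for 15 of the 24 genes with a window (62.5%) among called higher members of the glycolysis, hypoxia and collagen hydroxylase lists. The motif was found in 16 of 27 genes with a window (59.3%) among members of the same lists that were tested but not called higher. All tested genes with a window held it in 1551 of 5711 cases (27.2%), genes called higher in 28% and genes called lower in 29.9%. Counted by window instead of by gene, the share among all 32851 windows was 16.6%, which cannot be set directly beside the shares of genes. The motif was therefore about as frequent in members that rose as in members that were not called higher, and a match does not show a bound site.

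Genes of p53, the transcription factor of the damage response, and its targets rose in 15 of 30 tested cases and fell in 2 (median 0.67; 12 to 14 higher with 1 library left out). Pmaip1, the BH3-only protein Noxa, had 38.4, 22.3 and 20.8 in the control and 124, 158 and 93.9 at day 4. Cdkn1a, the inhibitor p21 of cyclin-dependent kinases, had 8.63, 2.76 and 3.31 in the control and 21.5, 15.9 and 13.4 at day 4, and Perp, a desmosome protein, 31.1, 15 and 19.9 in the control and 83.4, 72.9 and 66 at day 4. In all 3 genes every day 4 library lay above every control (2.18 ± 0.26, 1.71 ± 0.40 and 1.76 ± 0.22). Ccng1, cyclin G1, had 522, 592 and 653 in the control and 1319, 1154 and 901 at day 4 (0.92 ± 0.17), and Mdm4, which restrains p53, 142, 169 and 133 in the control and 256, 258 and 253 at day 4 (0.80 ± 0.14). Zmat3, an RNA-binding protein, Eda2r, a TNF-family receptor, Ercc5, a nuclease of excision repair, and Polk, a translesion polymerase, changed by 1.10, 0.86, 1.03 and 1.51. Trp53inp1, a stress protein that acts on p53, was the most abundant of the called members at 716, 677 and 673 in the control and 1054, 1178 and 1474 at day 4 (0.83 ± 0.15).

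Calls of Sesn2 and Phlda3 were lost on leaving out replicate 2 or 3 of the control or replicate 1 or 2 of day 4 (adjusted p reaching 0.0948) and on leaving out replicate 1 or 3 of the control or replicate 1 of day 4 (adjusted p reaching 0.0774). Sertad1 changed by -1.13, a call lost on leaving out replicate 2 of the control (adjusted p reaching 0.0704). Ei24 changed by -0.87, a call lost on leaving out replicate 1 or 3 of the control or replicate 1 or 2 of day 4 (adjusted p reaching 0.107). At day 6 Perp had 116 ± 8.30 normalized counts and Ccng1 1001 ± 187 (SD, n = 3). Of the Bcl2 family, which sets the threshold of apoptosis, 1 of 12 was higher (8.3%), Pmaip1, and 2 were lower (16.7%). Over all genes these shares were 7.47% and 8.40%. Bcl2l1, which encodes the survival protein Bcl-xL, had 87, 69.9 and 74.2 in the control and 33.9, 31.7 and 40.3 at day 4 (-1.10 ± 0.19, adjusted p 0.0011 by limma). Bak1, which opens the mitochondrial membrane in apoptosis, had 33.2, 27.6 and 44.1 in the control and 13.6, 11.3 and 20.8 at day 4 (-1.16 ± 0.26). Both fell without overlap, though Bcl2l1 acts against apoptosis and Bak1 for it.

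Genes linked to FOXO factors and cell cycle arrest were higher in 5 of 14 cases. Ccng2, cyclin G2, which slows the cycle and is also counted in the hypoxia list, had 17.4, 16.9 and 17.1 in the control and 123, 108 and 144 at day 4. Txnip, the thioredoxin-binding protein that limits glucose uptake, had 148, 152 and 147 in the control and 358, 348 and 288 at day 4. Day 4 stood at 7.28 and 2.22 times the control mean, without overlap (2.78 ± 0.23 and 1.14 ± 0.15). At day 6 they had 11.8 ± 2.94 and 114 ± 16.4 normalized counts (SD, n = 3), beside 28.5 ± 5.27 and 147 ± 14.1 at day 2. The calls of Foxo3, Klf10 and Btg1 were lost with several libraries left out, and without day 4 replicate 1 only 2 of the 5 remained.

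Ribosome biogenesis held the most lower genes of the lists examined. Of 83 biogenesis genes tested 30 were lower and none higher, with a median of -0.48. Under the leave-one-out fits 19 to 32 were lower, with 19 without control replicate 2 or day 4 replicate 2, and scaled without the 3 dominant rows 43 were. Within the machinery of RNA polymerase I, which transcribes ribosomal RNA, 5 of 9 genes were lower (median -0.83). Rrn3, the initiation factor TIF-IA, had 609, 549.8 and 541 in the control and 175, 209 and 343 at day 4. Polr1b, the second largest subunit, had 105, 125 and 91.4 in the control and 35, 39.6 and 67.6 at day 4, and Tcof1, the nucleolar protein treacle, 62, 69.5 and 53.9 in the control and 22.4, 26 and 15.7 at day 4. Day 4 was under the control in every library of these genes (-1.28 ± 0.19, -1.21 ± 0.22 and -1.51 ± 0.30), with replicate 3 the highest for Rrn3 and Polr1b. The largest subunit Polr1a changed by -0.83 ± 0.17 and Polr1d by -0.90 ± 0.20.

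For the large ribosomal subunit, 10 of 25 assembly factors were lower (median -0.48). Nop16 had 40.5, 40.2 and 43.4 in the control and 18.2, 14.9 and 6.11 at day 4 and Nop2, an RNA methyltransferase, 261, 253 and 284 in the control and 164, 173 and 156 at day 4. Bop1, part of the complex that processes 5.8S and 28S RNA, had 67.4, 58 and 51.5 in the control and 22.5, 35.2 and 23.1 at day 4, and Grwd1 175, 159 and 188 in the control and 73.5, 84.2 and 97.8 at day 4. None of these overlapped the control (-1.71, -0.69, -1.12 and -1.03). For the small subunit 8 of 34 were lower (median -0.40). Bysl, a factor of late small subunit assembly, had 41, 37 and 33 in the control and 21.2, 15.4 and 17.7 at day 4, Rrp12 40, 37.6 and 33.2 in the control and 20.2, 17.7 and 15.6 at day 4, and Dcaf13 48, 42.4 and 42 in the control and 16.8, 17.3 and 20.6 at day 4. These too were apart (-1.0, -1.01 and -1.24), while the calls of Imp4 and Nop14 were lost with 3 of the libraries left out (adjusted p up to 0.0912 and 0.136). Of 9 other nucleolar proteins 6 were lower, led by Surf6, with 74, 74.4 and 54.9 in the control and 18.9, 19.6 and 22.1 at day 4 (-1.69 ± 0.24, adjusted p 0.000185 by limma). Rrp8, a methyltransferase of ribosomal RNA, had 149, 94.3 and 89.3 in the control and 34.5, 43.3 and 55.5 at day 4.

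Ncl, which encodes nucleolin and holds 3 annotated small nucleolar RNAs, was at 562, 485 and 415 in the control and 237, 276 and 359.7 at day 4 (-0.75 ± 0.18), after 3866, 3155 and 2921 at day 2 of the hairpin. Reads of intronic small nucleolar RNAs cannot be told from those of the messenger here. The box C/D protein Nop58, another such host, changed by -0.47, a call lost on leaving out replicate 1, 2 or 3 of the control or replicate 1 or 2 of day 4 (adjusted p reaching 0.191). Npm1, nucleophosmin, was the most abundant of the 83 and overlapped the control at 2343, 1486 and 1605 in the control and 889.7, 1486 and 2140.0 at day 4. In the heat map the day 4 columns are blue in every row, as the choice of rows fixes.

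**Figure D4:**
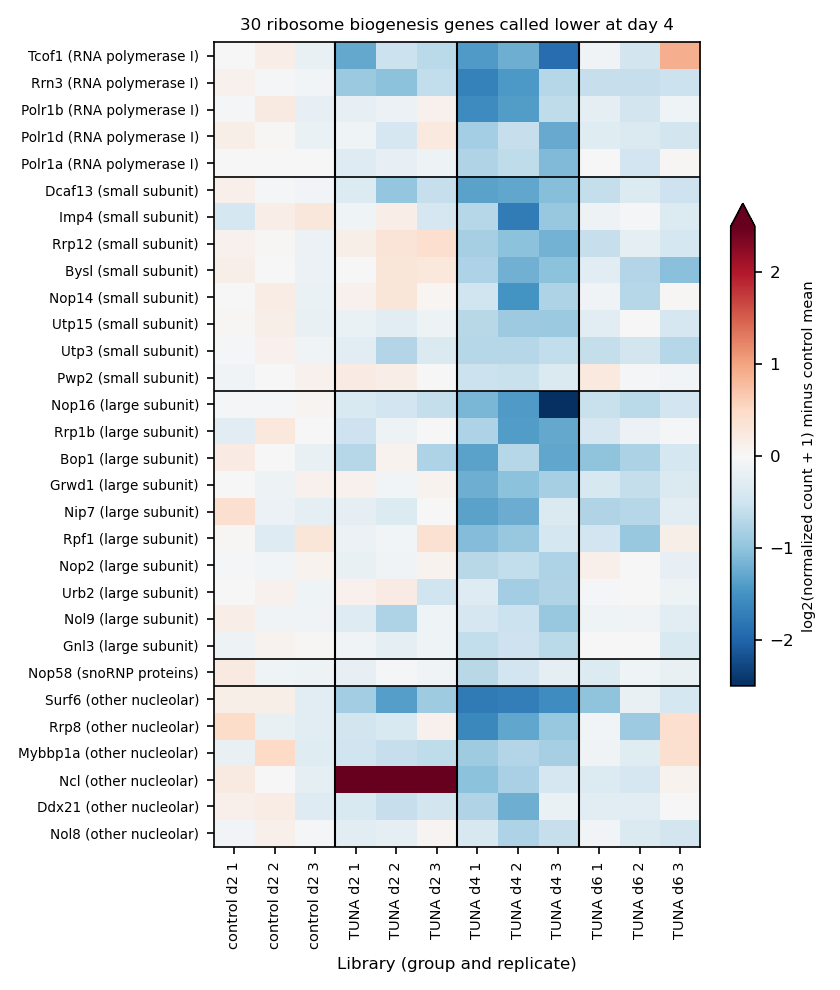
Colour gives log2(normalized count + 1) of each library minus the control mean, for the 30 ribosome biogenesis genes (rows, by role) called lower at day 4, over all 12 libraries (columns); the rows were chosen by the day 4 call. Ncl at day 2 exceeds the colour scale.

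The motif CACGTG, which Myc and related factors bind, was in a promoter window of 3 of 25 biogenesis genes that fell (12%), beside 10.7% of all tested genes with a window. Myc itself had 23.2, 26 and 20.9 in the control and 5.21, 6.84 and 7.33 at day 4, without overlap (-1.72 ± 0.29, adjusted p 0.000859 by limma), and Pa2g4, a nucleolar growth regulator, 316, 232 and 226 in the control and 64.7, 94.4 and 153 at day 4. Of 78 cytosolic ribosomal protein genes 5 were higher and 5 lower, with a median of 0.09 that turned to -0.11 when scaled without the 3 dominant rows. Only 2 were higher without control replicate 1 or 2 or day 4 replicate 2, and 9 without day 4 replicate 3. Rpl24 fell from 63.9, 86.2 and 72.3 to 28.1, 29.5 and 44 and Rpl30 rose from 537, 446 and 669.7 to 1126, 1030.0 and 1194, both without overlap. Rps12 had the deepest fall of them, but its controls spread over 74.1, 508 and 1263 and it holds 3 annotated small nucleolar RNAs. Many of these genes have near-identical pseudogene copies, and the sources used here do not give how shared reads were counted.

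Among translation factors 8 of 54 were lower and 1 higher, with 4 lower without control replicate 2 or day 4 replicate 2 and 5 without control replicate 3. Eif4g1, the scaffold of the cap-binding complex, had 334, 324 and 267 in the control and 130.2, 119.8 and 124 at day 4 (-1.29 ± 0.14, adjusted p 2.56e-05 by limma), though it holds 1 small nucleolar RNA. Eif4e2, a cap-binding protein, had 171, 143 and 146 in the control and 65.9, 56.8 and 89.1 at day 4 (-1.13 ± 0.17), and Eif3b, a subunit of the initiation factor that binds the small subunit, 163, 153 and 181 in the control and 106, 112 and 92.2 at day 4 (-0.68 ± 0.14). The cap-binding protein Eif4e itself was higher (0.70), a call lost on leaving out replicate 1 or 3 of the control or replicate 1 or 2 of day 4 (adjusted p reaching 0.128). Nuclear transport genes were lower in 8 of 48 cases (4 without control replicate 2, 5 without control replicate 3 and 3 without day 4 replicate 1) and mitochondrial ribosomal proteins in 5 of 63, which is 7.9% beside 8.40% of all genes.

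Genes of amino acid supply, targets of ATF4 among them, were lower in 8 of 41 cases and higher in 1 (5 lower without control replicate 1 or 2, and 4 without control replicate 3). Slc7a3, a transporter of cationic amino acids, had 338, 291 and 269 in the control and 94.3, 96.9 and 146 at day 4 (-1.43 ± 0.19, adjusted p 0.000118 by limma). Vars, the valyl tRNA synthetase, had 115, 76.4 and 80.1 in the control and 29.8, 39.6 and 42.3 at day 4 and Slc7a5, the large neutral amino acid transporter, 18.1, 22 and 23.1 in the control and 7.94, 11 and 3.61 at day 4. Day 4 was under the control in all libraries of these genes (-1.25 and -1.48). Chaperones were lower in 8 of 36 cases, but in 3 without control replicate 1 or day 4 replicate 2, 5 without control replicate 2 and 4 without control replicate 3. Calr, the calcium-binding chaperone of the endoplasmic reticulum, had 511, 495 and 456 in the control and 242, 274 and 247 at day 4 (-0.94 ± 0.13), and Hsph1, a cytosolic co-chaperone, 135, 122 and 109 in the control and 62.4, 73.8 and 70.4 at day 4 (-0.82 ± 0.20). Hsp90aa1, the most abundant of them, had 13980.0, 9549 and 8459 in the control and 6841, 9444 and 14340.0 at day 4 and overlapped.

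Pluripotency genes were lower in 14 of 45 cases and higher in none (median -0.40, and 12 to 14 lower with 1 library left out). Scaled without the 3 dominant rows 22 were lower, with a median of -0.61. Nr0b1, a nuclear receptor of naive cells, had 119.9, 117 and 146 in the control and 49.5, 39.7 and 34.2 at day 4. Nr5a2, a nuclear receptor that drives Oct4, had 114, 130.4 and 94 in the control and 43.1, 43.8 and 54.7 at day 4, and Zfp42, or Rex1, 539, 492 and 546 in the control and 328, 252 and 362 at day 4. All day 4 libraries of these genes lay under all controls (-1.62 ± 0.23, -1.24 ± 0.23 and -0.76 ± 0.17). Tdh, the threonine dehydrogenase on which mouse embryonic stem cells depend, had 381, 387 and 379 in the control and 148, 190.3 and 176 at day 4 (-1.16 ± 0.14, adjusted p 6.37e-05 by limma), and L1td1, an RNA-binding protein, 303, 290.5 and 281 in the control and 127, 136 and 133 at day 4 (-1.14 ± 0.13). Pou5f1, which encodes Oct4, had 731, 672 and 808 in the control and 527, 531 and 429.9 at day 4 (-0.57 ± 0.14), again without overlap.

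Sox2 and Nanog, the other core factors, overlapped the control at 558, 695 and 596 against 544, 566 and 544 and at 483, 406 and 345 against 429.6, 465 and 551 (adjusted p 0.436 and 0.365 by limma). In the LIF pathway, 5 of 15 genes were lower and 2 higher, in a divided way. Stat3, its transcription factor, fell from 72.2, 82.3 and 77.7 to 45.4, 44 and 39 (-0.84 ± 0.20). Its targets Tcfcp2l1 and Gbx2 fell too (-0.87 ± 0.15 and -1.56 ± 0.32). Socs3, a STAT3 target that damps the receptor, rose from 114, 94.7 and 106 to 201, 170.4 and 224 (0.91 ± 0.16, adjusted p 0.00111 by limma), and Il6st, the shared receptor subunit gp130, from 64.3, 56.9 and 49.6 to 82.5, 104 and 126 (0.85 ± 0.19). The 2 higher calls passed in each leave-one-out fit, as did 4 of the 5 lower ones, the exception being Pim3.

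The ERK pathway and its response genes were lower in 7 of 23 cases and higher in 1 (Sos1, lost in 4 of the 6 leave-one-out fits); 3 of the 7 passed the filter through control libraries only. Dusp6, the phosphatase induced by ERK that acts on it in turn, had 211, 218 and 237 in the control and 89, 121 and 132 at day 4. Spry4, another feedback inhibitor, had 73, 93 and 74.3 in the control and 34.3, 33.8 and 54.1 at day 4, and Etv4, an ETS factor, 21.6, 19.3 and 14.6 in the control and 4.84, 3.42 and 4.84 at day 4. Every day 4 library was under every control (-0.97 ± 0.17, -0.98 ± 0.23 and -1.85 ± 0.41). Dusp6 and Spry4 had 285 ± 49.1 and 129.6 ± 38.2 at day 6 (SD, n = 3), so that day 4 was under day 6 as well (-1.32 and -1.64). Outside the list, Dusp9, a phosphatase of ERK that maintains naive cells, went the other way at 56.1, 50.5 and 57.4 in the control and 188, 154 and 138 at day 4 (1.52 ± 0.17, adjusted p 2.85e-05 by limma). The ligand Fgf4 overlapped the control at 186, 185 and 232 against 231, 229 and 189.7.

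DNA methylation genes were lower in 5 of 15 cases and higher in 1, and in 3 without control replicate 2 or 3 or day 4 replicate 1. Dnmt3a and Dnmt3b, the de novo methyltransferases, had 139.6, 115 and 118 in the control and 51.3, 59.5 and 58.7 at day 4 and 57, 45.4 and 35.8 in the control and 13.5, 12.4 and 25.1 at day 4 respectively. Uhrf1, which brings the maintenance enzyme to replicated DNA, had 189.5, 159.7 and 198 in the control and 109, 88.9 and 87.6 at day 4, while its paralog Uhrf2 had 47.1, 46.6 and 44.5 in the control and 82.6, 70.2 and 102 at day 4. The groups were apart in all of these (-1.12 ± 0.18, -1.43 ± 0.32, -0.93 ± 0.17 and 0.85 ± 0.21). Longer lists of genes of other fates changed in both directions. Of 9 primitive endoderm genes tested 2 were higher and 1 lower, of 3 trophectoderm genes 1 and 1, of 10 primed epiblast genes 1 and 3, and of 4 neural genes none and 1. The single mesoderm gene tested did not pass. Among the higher ones, Id2, an inhibitor of differentiation factors, rose from 1.73, 3.72 and 2.21 to 27.9, 20.5 and 13.4 (2.59 ± 0.40), the keratin Krt19 from 4.31, 4.60 and 0 to 19.5, 35.3 and 15.9 (2.91 ± 0.58) and Cubn, an endocytic receptor of visceral endoderm, from 2.56, 2.76 and 0 to 23.4, 19 and 22.7 (3.25 ± 0.54). These 3 passed the filter through day 4 libraries only, and a difference in the share of cells cannot be told apart from one in RNA per cell.

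Of 25 genes of smooth muscle and the actin cytoskeleton 6 were lower and 4 higher (median 0.06, and -0.14 when scaled without the 3 dominant rows). The higher count was 2 without control replicate 1 or day 4 replicate 2. Actb, the beta actin of all cells, had 1407, 1788 and 1894 in the control and 1097, 994 and 873 at day 4. Actg1, gamma actin, had 588, 559 and 468 in the control and 269.5, 328 and 116 at day 4, and Flna, the filamin that crosslinks actin, 242, 274 and 237 in the control and 164, 146 and 139.5 at day 4. All day 4 libraries were under all controls (-0.77 ± 0.17, -1.30 ± 0.30 and -0.74 ± 0.13, adjusted p 0.00654, 0.00682 and 0.00111 by limma). Tpm3, a tropomyosin, had 135, 155 and 155 in the control and 79.8, 67.7 and 63.6 at day 4 (-1.07 ± 0.18), and Wdr1, a cofactor of actin disassembly outside the list, 166, 187 and 238 in the control and 95.6, 111 and 87.8 at day 4 (-0.99 ± 0.17).

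Among the raised ones, Tes, a focal adhesion protein, had 17.2, 17.5 and 12 in the control and 31.1, 42.9 and 60.7 at day 4 (1.44 ± 0.25). The smooth muscle genes Tagln and Tpm4 had 6.76, 7.55 and 4.41 in the control and 13, 22.8 and 12.1 at day 4 and 22.4, 30.1 and 31.9 in the control and 65.8, 72.2 and 33 at day 4 respectively, calls lost on leaving out replicate 1, 2 or 3 of the control or replicate 2 of day 4 (adjusted p reaching 0.159) and on leaving out replicate 1 of the control or replicate 1 or 2 of day 4 (adjusted p reaching 0.119). Against day 6 of the hairpin 12 of the 25 genes were lower at day 4 and none higher, with a median of -0.84. Tagln had 149 ± 7.43 at day 6 and Tpm4 146 ± 36.5 (SD, n = 3). Actb, Actg1 and Flna were lower at day 4 than at day 6 too (-1.09 ± 0.17, -1.73 ± 0.30 and -1.42 ± 0.13), and than at day 2 (-0.75 ± 0.17, -1.36 ± 0.30 and -1.04 ± 0.13). The plot of actin and signalling genes shows the dip at day 4.

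**Figure D5:**
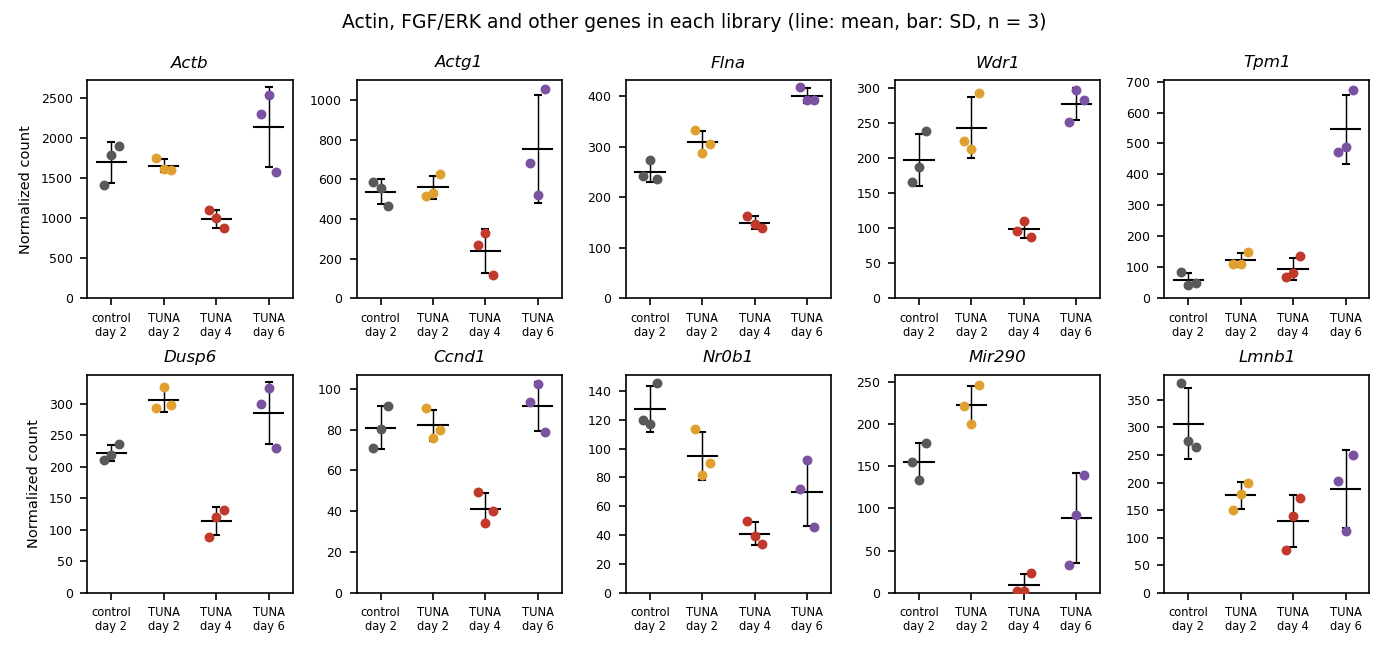
Normalized count (vertical, linear from 0) of 10 genes in each library of the 4 groups (points), with the mean (line) and SD (bar), n = 3. For Actb, Actg1, Flna, Wdr1, Dusp6, Ccnd1 and Mir290 the day 4 libraries are the lowest of all groups, while Tpm1 is high at day 6 only.

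The adhesion genes called went in both directions. Itgav, the integrin subunit that binds vitronectin and activates TGF-beta, had 32.5, 32.7 and 30.7 in the control and 113, 122 and 116 at day 4, without overlap (1.84 ± 0.16, adjusted p 2.4e-06 by limma). Fermt2, kindlin-2, which activates integrins, had 248, 191 and 153 in the control and 105, 126 and 116 at day 4 (-0.74 ± 0.18), a call lost on leaving out replicate 1 of the control (adjusted p reaching 0.0579). Of 12 integrin genes tested 2 were higher (16.7%) and 3 lower (25.0%), beside 7.47% and 8.40% of all genes. None was lower without control replicate 1. In the basement membrane list 1 of 14 was higher (7.1%) and 3 lower (21.4%). Nid1, nidogen, had 108, 115 and 100.2 in the control and 36.2, 40 and 37.7 at day 4 (-1.48 ± 0.18). The laminin Lama5 had 20.2, 8.71 and 9.84 in the control and 48.7, 41.3 and 42.6 at day 4 (1.79 ± 0.41). Of 24 cell adhesion genes 4 were higher (16.7%) and 1 lower (4.2%, under the share of all genes). The desmosomal cadherin Dsc2 had 7.77, 1.84 and 5.51 in the control and 24.4, 21.7 and 26.7 at day 4 (2.21 ± 0.40). The catenin Ctnnd1 had 492, 612 and 513 in the control and 309.5, 367 and 348 at day 4 (-0.65 ± 0.13).

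In Nodal and BMP signalling 5 of 26 genes were higher (19.2%) and 1 lower (3.8%), beside 7.47% and 8.40% of all genes. With 1 library left out, 3 to 5 were higher and 1 lower. Skil, a repressor of SMAD transcription, had 166, 190.2 and 157 in the control and 533, 583 and 563 at day 4, a change of 1.71 ± 0.13 (adjusted p 1.93e-06 by limma), and Smurf2, a ligase for SMADs, 24.6, 32.7 and 43.3 in the control and 62.4, 71.7 and 64.6 at day 4 (0.99 ± 0.22). Pcsk6, a protease that activates Nodal, had 50.8, 52.2 and 48.4 in the control and 25.6, 20 and 24.4 at day 4 (-1.09 ± 0.22). Of 11 genes of the Hippo pathway and its targets 4 were higher (36.4%) and 2 lower (18.2%). With 1 library left out, only 2 to 3 were higher and 0 to 1 lower. The factor Tead4 changed by -2.01 ± 0.49 from 27.4, 18.1 and 24.2 to 3.88, 2.56 and 11, a call lost on leaving out replicate 2 of day 4 (adjusted p reaching 0.052). The kinase Lats1 rose from 18.1, 24.8 and 16.5 to 47.5, 31.3 and 41.5 (0.98 ± 0.23). Has2, which makes hyaluronan, was listed at 0 in all 3 controls and had 21.5, 25.1 and 11 at day 4. In Wnt signalling 1 of 14 genes was higher and 1 lower, 7.1% each beside 7.47% and 8.40% of all genes. The higher one, Wls, which carries Wnt ligands to the surface, had 5.18, 0 and 3.31 in the control and 30.7, 30.7 and 51.5 at day 4 (3.65 ± 0.50), and the lower one, the receptor Fzd5, 109.6, 119 and 106 in the control and 49.5, 54.7 and 59.9 at day 4 (-1.01 ± 0.17).

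Regulators of G1 were higher in 5 of 32 cases (15.6%) and lower in 1 (3.1%), beside 7.47% and 8.40% of all genes. All 6 of these calls remained in each of the 6 leave-one-out fits. Besides the cyclins Ccng1 and Ccng2 and Cdkn1a, Rb1, the retinoblastoma gene, rose from 14.2, 5.55 and 6.88 to 28.5, 44.6 and 29.2 (1.90 ± 0.34). Ccnd1, cyclin D1, fell from 70.8, 80.2 and 91.7 to 49.4, 34.2 and 40.3 (-0.96 ± 0.18, adjusted p 0.00202 by limma). Cdk8, the kinase of the Mediator complex, had 199, 290.1 and 383 in the control and 1509, 1088 and 558 at day 4, with a wide spread but no overlap (1.79 ± 0.29). Of 60 genes of DNA replication 8 were lower (13.3%) and 1 higher (1.7%). Only 5 of the 8 lower calls, and not the higher one, held with each library left out. Among the lower genes, Timeless, a replication fork protein, had 39.8, 49.4 and 47.3 in the control and 15.4, 14.2 and 14.6 at day 4 (-1.56 ± 0.24). Cdc6, a loader of the replicative helicase, had 198, 157 and 136 in the control and 69, 68 and 92.4 at day 4 (-1.08 ± 0.19).

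Of 69 mitosis genes 11 were higher (15.9%) and 5 lower (7.2%), beside 7.47% and 8.40% of all genes. Only 3 of the 16 calls passed in each leave-one-out fit. The count of higher ones was 5 without control replicate 3, 6 without control replicate 2, 7 without control replicate 1 or day 4 replicate 2, and 4 when scaled without the 3 dominant rows, where the list's median also turned from 0.15 to -0.05. Hmmr, a spindle protein, had 140.2, 149.9 and 135 in the control and 288, 225 and 262 at day 4 (0.86 ± 0.14), and Kif18a, a kinesin of chromosome alignment, 70.6, 89.4 and 86.5 in the control and 148, 144 and 133 at day 4 (0.78 ± 0.15). None of the 5 falls, Racgap1, Kif22, Cdc20, Ccna2 and Aurka (-0.94 for Racgap1 and -0.51 for Aurka), held with each library left out. G2e3, a ubiquitin ligase of G2, had 183, 148 and 152 in the control and 451, 509.6 and 482 at day 4 (1.58 ± 0.13, adjusted p 2.36e-06 by limma).

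General transcription factors and Mediator subunits were lower in 8 of 51 cases and higher in none, with 5 lower without control replicate 1 or 3. Med22 had 82.8, 67.1 and 76.6 in the control and 27.2, 41 and 25.7 at day 4 (-1.27 ± 0.23) and Gtf2h1, a subunit of TFIIH, 386, 268 and 243 in the control and 98.1, 110.2 and 171 at day 4 (-1.25 ± 0.24). Taf1d, a subunit of the RNA polymerase I factor SL1 that holds 8 small nucleolar RNAs, had 1094, 1092 and 1430.0 in the control and 622, 542 and 550.0 at day 4. Of 8 keratin and filament genes tested, lamins among them, 3 were lower and 1 higher. The B-type lamins Lmnb1 and Lmnb2 had 380.2, 276 and 264 in the control and 78.5, 139 and 172 at day 4 and 91.1, 117 and 115 in the control and 69.7, 54.9 and 48.5 at day 4 respectively (-1.29 ± 0.28 and -0.89 ± 0.20). Of 43 autophagy and lysosome genes 6 were higher and 3 lower, with 3 higher without control replicate 2 or day 4 replicate 2 and 1 lower without control replicate 1. Lamp2, a lysosomal membrane protein, had 53.1, 62.1 and 45.8 in the control and 117, 140.0 and 172 at day 4 (1.39 ± 0.22), and Sqstm1, the autophagy receptor p62, 164, 188 and 203 in the control and 97.9, 103 and 103 at day 4 (-0.86 ± 0.15). Zscan4c, a gene of the transient state of embryonic stem cells that resembles the early embryo, had 3.31, 1.07 and 1.10 in the control and 24.1, 34.5 and 31.8 at day 4 (3.53 ± 0.59, adjusted p 0.000779 by limma). It passed the filter through day 4 libraries only.

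A share of histone genes and small RNAs was higher at day 4, with levels uneven between libraries of a group. Of 71 histone genes 18 were higher and none lower (median 0.52), and of 54 small RNA and host rows 22 were higher and 1 lower (median 0.77). Scaled without the 3 dominant rows, 6 histone genes and 14 small RNA rows were higher. Without control replicate 1 there were 6 higher histone genes and 11 higher small RNA rows, and without day 4 replicate 1 again 6 and 11. Control replicate 2 left 7 and 12, and day 4 replicate 2 left 8 and 13. Without day 4 replicate 3 there were 26 and 30. Hist1h1c, a linker histone, had 142, 146 and 165 in the control and 466, 298 and 192 at day 4 (0.98 ± 0.23), and Hist1h1b 111, 118 and 155 in the control and 343, 249 and 192 at day 4 (1.0 ± 0.22). The small nucleolar RNA Snora28 had 271, 315 and 341 in the control and 926, 652 and 646 at day 4 (1.25 ± 0.19), and Snord16a 111, 103 and 186 in the control and 381, 291 and 306 at day 4 (1.33 ± 0.21).

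Control replicate 3 was the highest control in 60 of the 71 histone genes and 46 of the 54 small RNA rows, and day 4 replicate 1 the highest day 4 library in 60 and 40. Over all 8043 genes control replicate 3 was the highest in 2663 and day 4 replicate 1 in 2646. Snord118, the U8 RNA, showed this spread at 22510.0, 34190.0 and 49920.0 in the control and 82130.0, 64820.0 and 34850.0 at day 4 and did not pass (adjusted p 0.189 by limma). The histone genes tested summed to 12328, 15269 and 18524 normalized counts in the control and to 25949, 21387 and 16509 at day 4, so that the groups overlapped. The small RNA rows without Rnu3a summed to 87761, 103218 and 147317 in the control and 198395, 178442 and 114631 at day 4. The abundant messengers Hsp90aa1 and Mcl1 (2746, 1663 and 1522 in the control and 1393, 1863 and 3334 at day 4) ran in the reverse order. The part of this unevenness in the calls was not tested.

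Other large changes were spread over genes of many kinds. H2-M5, a histocompatibility gene, fell from 105, 97.5 and 107 to 19, 17.2 and 22 (-2.36 ± 0.21, adjusted p 3.49e-06 by limma). Foxp1, a forkhead factor, had 79, 62.2 and 65.9 in the control and 2.74, 5.64 and 25.5 at day 4 (-3.0 ± 0.49), and Samd9l, an interferon-induced gene, 39.7, 21.1 and 41.7 in the control and 4.56, 5.70 and 0 at day 4 (-3.34 ± 0.53). Tns3, a tensin of focal adhesions, had 309, 370.5 and 345 in the control and 122, 126 and 132 at day 4, and Zfp532 257, 310.4 and 309 in the control and 115, 105 and 101 at day 4. In all of these the groups were apart, the last pair by -1.42 ± 0.18 and -1.44 ± 0.14. Slc25a12, the mitochondrial aspartate-glutamate carrier, had 100.4, 96.7 and 93.7 in the control and 30.4, 30.6 and 35.4 at day 4 (-1.56 ± 0.18), and Slc20a1, a phosphate transporter, 218, 225 and 184 in the control and 62.7, 91.9 and 86.4 at day 4 (-1.38 ± 0.19). St13, a cofactor of Hsp70, fell from 332, 325 and 306 to 115, 133 and 133 (-1.33 ± 0.21) and Ddx58, the RNA sensor RIG-I, from 92, 88.8 and 80.7 to 22, 34.3 and 50.2 (-1.34 ± 0.23).

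On the rising side, Ano3, an anoctamin, had 32.2, 21.1 and 18.5 in the control and 74.4, 74.5 and 121 at day 4 (1.87 ± 0.27), and Flot2, flotillin 2 of lipid rafts, 18, 27.2 and 22.8 in the control and 78.3, 74.4 and 91.1 at day 4 (1.81 ± 0.20). Fut9, the fucosyltransferase that makes the SSEA-1 epitope of mouse embryonic stem cells, had 4.31, 4.60 and 5.51 in the control and 45.6, 35.7 and 40.3 at day 4 (2.84 ± 0.35, adjusted p 6.77e-05 by limma). Sema3e, a semaphorin, rose from 3.45, 2.76 and 3.69 to 27.6, 27.2 and 25.7 (2.70 ± 0.31). Vcan, the matrix proteoglycan versican, had 75, 74.8 and 67.8 in the control and 162, 195 and 209 at day 4 and Pros1, protein S, 112, 63.8 and 70.3 in the control and 186, 215 and 257 at day 4. Neither overlapped the control (1.36 ± 0.16 and 1.44 ± 0.20). Slc25a36, a mitochondrial pyrimidine carrier, was among the more abundant at 619.6, 709.9 and 608 in the control and 1387, 1437 and 1369 at day 4 (1.12 ± 0.12). The noncoding RNA Malat1 had 2898, 3507 and 2641 in the control and 4377, 5100.0 and 4905 at day 4 (0.68 ± 0.16). Of the genes given with values, Egln3, Ppp1r3c, Fam162a, Bhlhe40, Cdkn1a, Tagln, Id2, Krt19, Cubn, Dsc2, Has2, Wls, Zscan4c, Fut9 and Sema3e reached 10 normalized counts in no control library. Myc, Etv4 and Samd9l reached 10 in no library of day 4. Bnip3, Lama5 and Rb1 reached it in 1 control library and Narf in 2, while Mir290, Foxp1, Gbx2, Sertad1, Slc7a5 and Tead4 reached it in 1 day 4 library and Nop16 in 2. All of these passed the filter through the group where they were high.

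Day 4 was also set against the other days of the same hairpin, where no control enters the difference but the day 4 libraries are shared with the comparison above. The genes were those kept by the filter on control and day 4 libraries, so a gene high only at day 2 or day 6 was not tested. Against day 2, 289 of the 8043 genes (3.59%) were higher and 380 (4.72%) lower, and against day 6, 262 (3.26%) were higher and 208 (2.59%) lower, by limma with Benjamini-Hochberg adjustment. Against day 2, 1969 genes had an unadjusted p under 0.05, and against day 6 there were 1707. Without day 4 replicate 2 the counts were 144 and 225 against day 2 and 115 and 114 against day 6. Without day 6 replicate 1 the second pair was 137 and 99. Without day 2 replicate 1, 2 or 3 the lower counts against day 2 were 222, 188 and 191, and without replicate 2 or 3 the higher ones were 159 and 145. Without day 4 replicate 1, 178 genes were higher than at day 2.

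Among the genes called by limma at day 4 against all 3 other groups, Ccng2 was 2.10 ± 0.23 above day 2 and 3.31 ± 0.23 above day 6. Plod2 stood 1.65 ± 0.20 and 1.45 ± 0.20 above them, Txnip 1.17 ± 0.15 and 1.54 ± 0.15, and Tpi1 1.44 ± 0.15 and 1.19 ± 0.15. Of the falls, Ccnd1 was at -0.98 ± 0.18 and -1.13 ± 0.18, Wdr1 at -1.29 ± 0.17 and -1.49 ± 0.17, and Rrp8 at -1.04 ± 0.29 and -1.11 ± 0.29. In the glycolysis list 8 of 21 genes were higher than at day 2 and 11 higher than at day 6, and in the hypoxia list 13 of 29 in each case. Of these lists, 1 of the 21 and 6 of the 29 passed the filter through day 4 libraries only. For ribosome biogenesis 19 and 13 of 83 were lower. Histone genes were higher than at day 2 in 21 of 71 cases. Perp at 74.1 ± 8.75 was between 45.7 ± 5.24 at day 2 and 116 ± 8.30 at day 6 (SD, n = 3), and did not pass against either (0.69 and -0.64, adjusted p 0.067 and 0.1 by limma).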

How the data were processed

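Total RNA of 12 libraries of CCE cells was sequenced. The authors deposited one table of log2 normalized counts per gene, in which 0 stands for 1 normalized count or fewer, per the file headers and values; per the submitters' processing notes, which give neither versions nor roles, BWA, DESeq and mm9 were used. The values were turned back to normalized counts, and genes with at least 10 in 3 of the 6 libraries of day 4 and control were kept (8043 of 37477). Of the low values above 0, between 44.4% and 56.8% per library lay within 0.02 of whole reads. No count test was run, as the deposited values were log2 normalized counts. limma 3.58.1 in R 4.3.3 was fitted to log2(value + 1) over all 12 libraries, with 1 coefficient per group and an intensity trend, and p-values were adjusted by Benjamini-Hochberg over all genes at a threshold of 0.05; fold changes on this scale understate the change of low genes. The fit was tested on simulated data. Promoters and microRNAs came from RefSeq tables of GRCm38.p6, and no coordinates were converted. Of the symbols, 81.0% matched a RefSeq name or synonym or a name of the GENCODE gene annotation. That annotation also gave the genes that hold small nucleolar RNAs. Among the genes tested, 5711 had a promoter window. Alternatives covered the pseudocount, filter, scaling, model and single libraries.

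The members and the 60 gene lists were chosen with earlier results of these data known. Genes named were the largest changes by size and by p, those called by limma at day 4 against every other group, and list members. Other genes, and which list members to describe, were chosen after their values were seen. One gene the rule picks is not reported here.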

Additional observations from a re-analysis of the deposited data

Results flagged for a closer look

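The genes below were picked out because day 4 differed, by limma, from day 2 and from day 6 of the same hairpin as well as from the control. The comparisons share the day 4 libraries. Among the genes kept by the filter on control and day 4 libraries, day 4 minus day 2 gave 289 higher and 380 lower, and day 4 minus day 6 gave 262 and 208. On the log2 scale, Ccng2 differed from day 2 by 2.10 and from day 6 by 3.31, Cdk8 by 1.29 and 1.80, and G2e3 by 1.67 and 1.48. The hydroxylase genes Plod2 and P4ha1 differed by 1.65 and 1.45 and by 1.28 and 1.62. The glycolytic genes Pgk1 and Tpi1 differed by 1.20 and 1.51 and by 1.44 and 1.19. Txnip differed by 1.17 and 1.54, BC030307 by 1.32 and 1.33, and Rnf19a, a ubiquitin ligase, by 1.43 and 1.44.

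Among the lower genes, Mir290 differed from day 2 by -5.01 and from day 6 by -3.47. The actin genes Actg1 and Wdr1 differed by -1.36 and -1.73 and by -1.29 and -1.49. Dusp6 differed by -1.44 and -1.32, and Ccnd1 by -0.98 and -1.13. The nuclear genes Med22, Taf1d and Rrp8 differed by -1.36 and -1.45, by -1.72 and -1.32, and by -1.04 and -1.11. Dapk3, a kinase, differed by -1.36 and -1.44, and Ddx58 by -1.04 and -1.31.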

How the results depend on the processing

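Without a day 4 control, with 3 libraries a group and with 1100217 to 2026100 reads outside 3 rows, low genes were measured with few reads. Against the control, 601 genes were higher and 676 lower. Scaling by the total without the 3 most abundant rows gave 337 and 1334, array weights 1048 and 1158, and an adjusted p of 0.01 gave 257 and 330. With single libraries left out, higher genes ran from 362 to 572 and lower ones from 444 to 721. Against day 2 these ranges were 144 to 272 and 188 to 465, and against day 6 they were 115 to 255 and 99 to 217. The other settings moved the counts by less than 1.5 times. Signs were checked only for genes named or listed, and none of those called changed sign under any alternative run. Scaled without the 3 rows, the medians of several lists turned negative. Among them were the actin list (-0.14), cytosolic ribosomal proteins (-0.11), mitosis (-0.05), cell adhesion (-0.13), basement membrane (-0.06) and G1 regulators (-0.18). Without the filter the balance of calls turned, with 632 higher and 604 lower. Replicate numbers did not pair the libraries, as same-numbered deviations correlated at -0.321, 0.026 and -0.249. With a replicate block the counts were 555 and 642 against the control, 255 and 335 against day 2, and 218 and 168 against day 6. Of 465 genes named or listed and called against the control, 251 kept their call in each alternative that tested them and 214 lost it in some; there were 19 such alternatives, or 18 for genes that hold annotated small nucleolar RNAs. Leaving out genes that hold annotated small nucleolar RNAs, an alternative chosen after seeing the data, gave 582 and 662.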
